A study of Mus musculus with 17 samples.

Results

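The glutamate transporters of the cell surface belong to the Slc1a family, and 6 of its genes, Slc1a1 to Slc1a6, were followed here in mouse brain. The members were chosen by gene symbol alone, and they were 6 of the 45147 features (41015 annotated genes, plus assembled loci and unmatched transcripts) into which the deposited counts were summed. Slc1a7, a further gene of the family, is not among them; it lay between 0.0437 and 0.743 CPM (counts scaled to a common library size) and was too low to be tested.

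Glutamate is the main excitatory transmitter of the brain, and it is cleared from the extracellular space by transporters that carry it into glia and neurons together with sodium and protons, in exchange for potassium. Slc1a2 encodes GLT-1 (EAAT2), the main astrocyte transporter of the forebrain, and Slc1a3 encodes GLAST (EAAT1), which is strong in the Bergmann glia of the cerebellum. Slc1a1 encodes EAAT3, a transporter of neurons, and Slc1a6 encodes EAAT4, which is found above all on the dendrites of cerebellar Purkinje cells. Slc1a4 and Slc1a5 encode ASCT1 and ASCT2, which exchange serine, alanine, cysteine or glutamine rather than take up glutamate.

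The study sequenced total RNA from the brains of mice of C57BL/6 background and asked how gene expression differs when HAR1A is overexpressed. HAR1A is a long noncoding RNA from a stretch of the human genome that changed fast in the human lineage. The transgene group held 6 libraries and the group of normal control mice 11. The labels give no promoter, founder line, part of the brain, age or sex, and nothing in them ties a library to its own animal. The p-values below therefore reflect how much the libraries vary, which may be technical. The RNA of the transgene itself was not analysed here.

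All 6 transgene libraries were sequenced on lane 4 of the flow cell that carried most of the series. Lane 4 also held controls 7, 8 and 11, lane 8 held 6 controls, lane 2 held control 4, and control 6 was run elsewhere, on lane 6 of a second flow cell. Lane and group are therefore separable only within lane 4, and each comparison is given over all 17 libraries and again within lane 4. Assigned counts ranged from 17067407 to 22642441 per library. Markers of neurons were present in every library (summed CPM of 3034 to 4984 in the control group and of 2806 to 4280 in the transgene group), as were astrocyte markers. Markers of brain regions differed between the groups. Forebrain projection neuron markers rose in the transgene libraries in 7 of 7 cases (summed level 4054 to 5912 CPM, against 94.7 to 2307 CPM in controls). Hindbrain and cord genes fell in 6 of 6 cases (0.833 to 1.69 CPM, against 31.2 to 277 CPM), and Hoxa5, Hoxb5, Hoxb3 and Hoxc5 were at 0 in at least 1 transgene library.

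The start regions of 3 members are shown first, because Slc1a1 rose, Slc1a6 fell, and Slc1a3 varied between libraries together with Slc1a6. The letters are the 250 bases before the RefSeq transcription start on GRCm38.p6, read 5′ to 3′ on the strand of the gene. They lie at chr19:28834885-28835134 (plus strand), chr15:8710808-8711057 (minus strand) and chr10:78780246-78780495 (plus strand). Capitals mark matches on either strand to CANNTG (the E-box), AGGTCA (the core of nuclear receptor sites), TATAAA (the TATA box) or GGGCGG (the GC box).
Slc1a1: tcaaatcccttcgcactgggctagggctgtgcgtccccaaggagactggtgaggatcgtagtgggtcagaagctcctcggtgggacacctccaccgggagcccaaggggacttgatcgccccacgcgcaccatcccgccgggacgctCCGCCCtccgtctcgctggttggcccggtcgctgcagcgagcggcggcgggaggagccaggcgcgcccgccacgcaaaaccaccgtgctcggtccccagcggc
Slc1a3: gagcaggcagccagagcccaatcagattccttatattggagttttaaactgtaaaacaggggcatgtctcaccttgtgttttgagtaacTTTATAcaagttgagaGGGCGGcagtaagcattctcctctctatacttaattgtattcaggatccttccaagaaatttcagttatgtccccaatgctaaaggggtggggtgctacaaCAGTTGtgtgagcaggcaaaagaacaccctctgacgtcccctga
Slc1a6: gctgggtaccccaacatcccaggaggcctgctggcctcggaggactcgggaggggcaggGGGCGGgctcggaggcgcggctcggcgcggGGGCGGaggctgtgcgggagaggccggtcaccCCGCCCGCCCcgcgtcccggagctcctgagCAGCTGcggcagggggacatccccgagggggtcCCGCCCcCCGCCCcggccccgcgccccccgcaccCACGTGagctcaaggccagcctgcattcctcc

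Counted over 300 bases, from 250 before to 50 after the start, the Slc1a6 window was 75.7% G and C with 32 CpG dinucleotides, and the Slc1a1 window was 70.3% G and C, also with 32 CpG. The Slc1a3 window differed from both, with 45.3% G and C and 3 CpG. Over all 32817 RefSeq promoter windows of this length the medians were 52.7% and 7 CpG. The Slc1a6 window held 6 matches to the GC box, of which a pair overlapped, and 2 to the E-box. The Slc1a3 window held 1 match each to the TATA box, the GC box and the E-box, and the Slc1a1 window held 1 to the GC box. None of these 3 windows held AGGTCA. The GC box occurred in 35.6% of all windows, the E-box in 72.3%, the TATA box in 13.6% and AGGTCA in 16.3%. The RefSeq start of Slc1a2 lies 47779 bases inside the annotated gene, at a transcript that took few counts, and its window is not shown.

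Counts had been deposited per transcript, and the members differ in how many rows carry them. Slc1a1 (chr19:28835049-28913960), Slc1a5 (chr7:16781340-16798274) and Slc1a6 (chr10:78780496-78814765) each had 1 row. Slc1a2 (chr2:102658659-102790784) had 4 rows, and 99.97% of its 817910 counts lay on the longest, Slc1a2-202. Slc1a3 (chr15:8634124-8710764) had 2 rows, with 99.97% of counts on Slc1a3-201. Coordinates are annotated gene bounds on mm10.

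Slc1a4 (chr11:20302180-20332713) is the least certain member. All of its 610 counts lay on Slc1a4-202, which has 54 bases that no other deposited transcript covers, and Slc1a4-201, which has none, was at 0. Slc1a1 shares 1216 of its 3800 exon bases with 4430402I18Rik, a gene on the opposite strand, and the strand setting of the counting is not given in the sources used here. That neighbour was also higher in transgene libraries, at 14.6 ± 1.1 CPM against 8.53 ± 1.08 (SD, n = 6 and 11; log2 difference 0.77 ± 0.09 SE, edgeR adjusted p = 1.67e-06). How reads on the shared bases were counted is not known from these sources.

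Slc1a2, the astrocyte transporter GLT-1, had the highest CPM of the members in every library but control 4, in which Slc1a3 was higher. It ranged from 1247 CPM (control 4) to 2441 CPM (control 7) among controls, with a median of 1738, and from 3080 to 4071 CPM among transgene libraries, with a median of 3411. Each transgene library was above each control. Slc1a2 rose by 0.95 ± 0.12 on the log2 scale over all libraries (SE, edgeR quasi-likelihood adjusted p = 3.6e-06). Within lane 4 the controls lay at 2441, 1692 and 2016 CPM, again below every transgene library, and the difference was 0.76 ± 0.14 (edgeR adjusted p = 0.00349).

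Slc1a3, the glial transporter GLAST, did not pass the test, and its controls were far apart. Controls ranged from 346 CPM (control 7) to 1503 CPM (control 3), with a median of 1181, and transgene libraries lay close together between 780 and 969 CPM, with a median of 865. The groups overlapped, since controls 7 and 11 (762 CPM) were below all transgene libraries while the other 9 controls were above them all. The log2 difference over all libraries was -0.37 ± 0.21 (edgeR adjusted p = 0.150), which misses the threshold of 0.05. Without control 7 alone it was -0.44 ± 0.11 and passed (edgeR adjusted p = 0.00339). Control 7 was the lowest control, so leaving it out widens the fall by construction and gives it no support. Within lane 4 the difference was 0.12 ± 0.29 (edgeR adjusted p = 0.802). In a fit with a term for lane and flow cell it was 0.14 ± 0.26, so no direction can be given for Slc1a3.

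Slc1a1, the neuronal transporter EAAT3, rose with Slc1a2. Controls ranged from 51.7 CPM (control 9) to 98.0 CPM (control 7), with a median of 66.2, and transgene libraries from 107 to 131 CPM, with a median of 126. The groups did not overlap, and the nearest control was control 7. The log2 difference was 0.86 ± 0.11 over all libraries (edgeR adjusted p = 4.45e-06) and 0.59 ± 0.13 within lane 4 (edgeR adjusted p = 0.00649).

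Slc1a6, the Purkinje cell transporter EAAT4, fell, and it showed the largest difference of the 6 genes. Controls ranged from 26.2 CPM (control 7) to 256 CPM (control 4), with a median of 171. The transgene libraries lay at 24.6, 14.6, 49.6, 19.6, 22.7 and 15.2 CPM in the order transgene 1 to 6. The groups overlapped only because control 7 lay below transgene 3. Slc1a6 fell by 2.78 on the log2 scale over all libraries (SE 0.38, edgeR adjusted p = 1.06e-05).

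Within lane 4 the Slc1a6 controls lay at 26.2 (control 7), 171 (control 8) and 102 CPM (control 11). The difference there was -2.04 ± 0.49 (edgeR adjusted p = 0.0113). It rested on control 8, without which it was -1.40 ± 0.49 and missed the threshold (edgeR adjusted p = 0.0617). Control 7 and transgene 3 stood apart in cerebellar genes in earlier results of these data, and they are the lowest control and the highest transgene library for Slc1a6. Leaving out both (-2.83 ± 0.23) therefore widens the difference by construction and gives it no support.

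The neutral amino acid exchangers were rare and did not pass the test. Slc1a5 (ASCT2) lay between 4.18 and 10.5 CPM in controls, with a median of 5.81, and between 6.80 and 9.25 CPM in transgene libraries, with a median of 8.15. The highest value was control 11, above every transgene library. The log2 difference was 0.36 ± 0.15 over all libraries (edgeR adjusted p = 0.0601) and 0.07 ± 0.19 within lane 4 (edgeR adjusted p = 0.833). The call was close to the threshold and depended on the setting. Without control 11 the difference was 0.46 ± 0.12 (edgeR adjusted p = 0.00499). It also passed without control 3, control 7 or transgene 3 (edgeR adjusted p = 0.0498, 0.0418 and 0.0387). Controls 3, 7 and 11 lay above the control median, and transgene 3 was the lowest transgene library. These fits therefore widen the rise by construction and give it no support.

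Slc1a4 (ASCT1) lay between 0.655 and 2.55 CPM in controls, with a median of 1.56, and between 1.53 and 2.30 CPM in transgene libraries, with a median of 2.10. Its counts were 15 to 55 per library, which limits the precision, and the groups overlapped. The log2 difference was 0.29 ± 0.21 over all libraries (edgeR adjusted p = 0.275) and 0.06 ± 0.24 within lane 4 (edgeR adjusted p = 0.881).

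**Figure D1:**
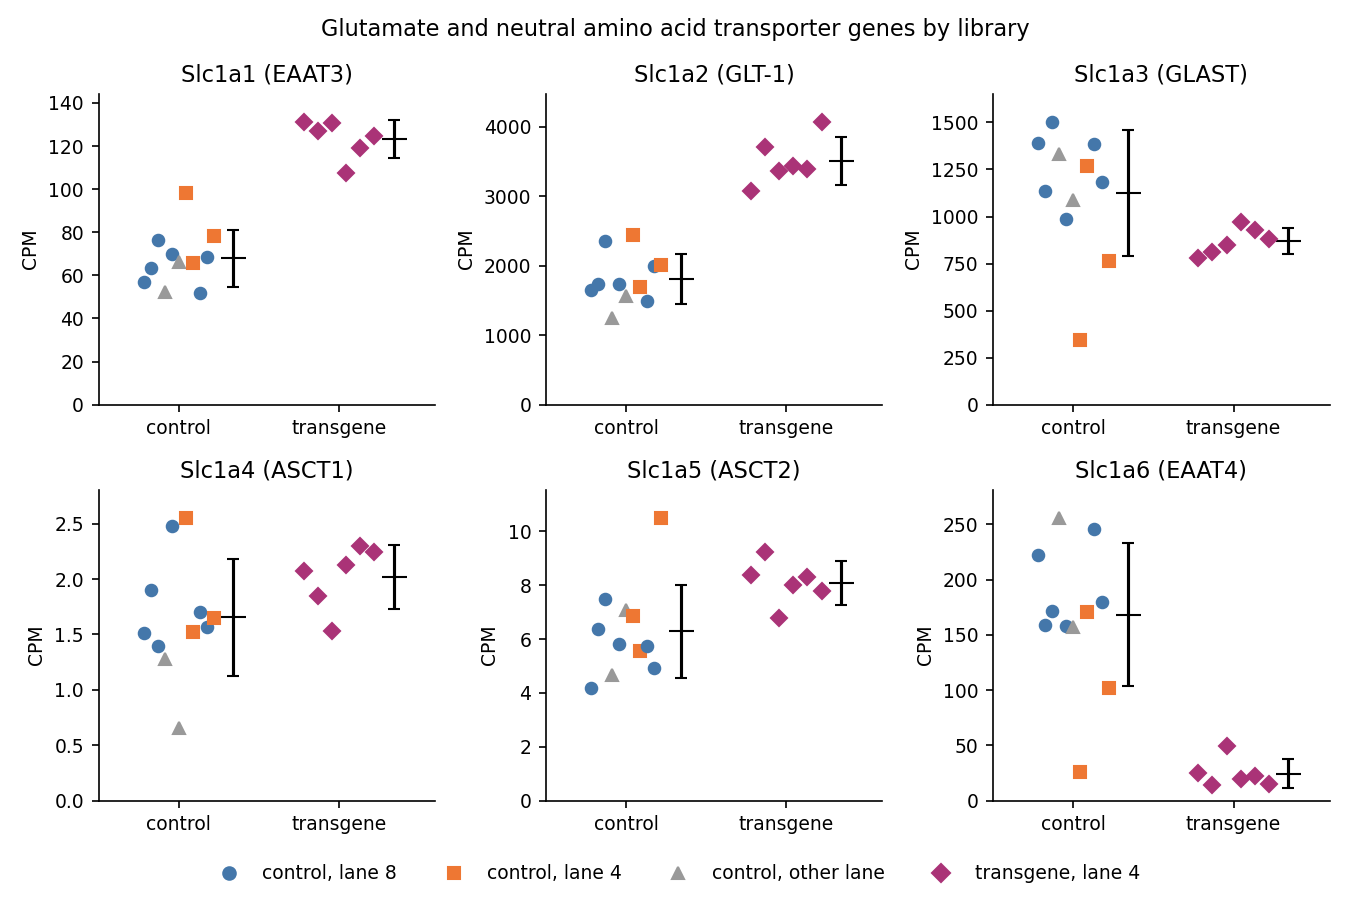
Each panel shows a transporter gene, with its level in CPM (vertical axis, starting at 0) in 11 control and 6 transgene libraries, marked by lane. Horizontal bars are group means and error bars are 1 SD. Slc1a1 and Slc1a2 show no overlap between groups, and Slc1a6 in control 7 (26.2 CPM) sits among the transgene libraries.

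In all, 2 of the 6 members rose (Slc1a1 and Slc1a2) and 1 fell (Slc1a6), both over all libraries and within lane 4. These counts are to be read against the whole table, in which 47.4% of 19136 tested features were called over all libraries (23% higher and 24.4% lower) and 25.6% of 19261 within lane 4 (13.6% higher and 12% lower). With a block by title number 3041 features were called within lane 4 instead of 4936, and the 3 members kept their calls. That fit rests on controls 7, 8 and 11 and transgene 2, 3 and 5. Transgene 1, 4 and 6 share a number with no other library of lane 4. Groups without overlap were found for 2 members, both higher in transgene libraries. They were found for 14.9% of all features over all libraries (9.46% higher and 5.4% lower) and for 25.4% within lane 4 (14.7% higher and 10.6% lower). Over all libraries a share of 3 in 6 is thus near the background, and it is the size and direction of each gene that is reported here. Scaling by library size alone moved the median log2 difference of all features from -0.05 to -0.16, and 3511 of 9867 called features were then higher, against 4409 of 9077. Under that scaling the differences were 0.75 ± 0.10 for Slc1a1, 0.84 ± 0.10 for Slc1a2 and -2.90 ± 0.39 for Slc1a6, with all 3 calls kept.

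**Figure D2:**
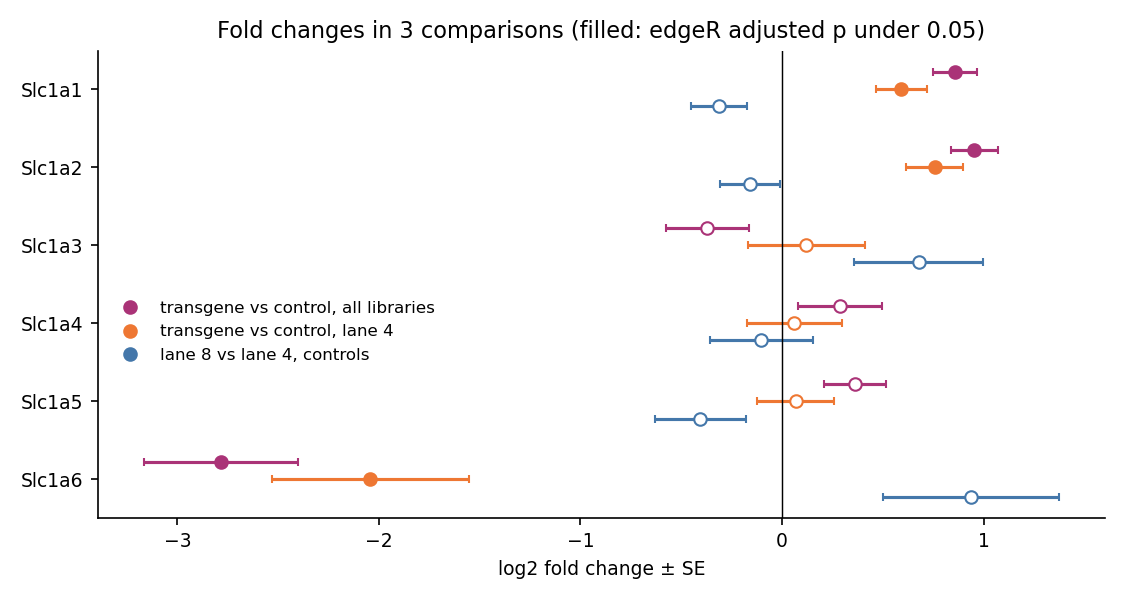
Log2 differences with SE (horizontal axis) of the 6 genes in 3 comparisons that share libraries: transgene minus control in the full set, transgene minus control in lane 4 alone, and lane 8 minus lane 4 among controls. Filled points passed the edgeR adjusted threshold of 0.05; only Slc1a1, Slc1a2 and Slc1a6 have filled points, at 0.86, 0.95 and -2.78 over all libraries.

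Among controls alone, the lanes were compared to see how far the members move with no transgene. With edgeR, 0% of 19384 features were called between the 6 controls of lane 8 and the 3 of lane 4; 1543 had an unadjusted p under 0.05, and DESeq2 called 1. Slc1a6 was at 190 ± 36.3 CPM in lane 8 and 99.5 ± 72.2 CPM in lane 4 (SD, n = 6 and 3), a log2 difference of 0.94 ± 0.44 (edgeR adjusted p = 0.581). Slc1a3 differed by 0.68 ± 0.32 and Slc1a1 by -0.31 ± 0.14, with the same adjusted p. The sizes rested on single controls: without control 7 they were 0.47 for Slc1a6, 0.31 for Slc1a3 and -0.17 for Slc1a1, and without control 8 they were 1.57, 1.19 and -0.44. For 0 members were the lanes without overlap, against 2.62% of all features (1.52% higher and 1.1% lower in lane 8). The lane 4 controls were nearer to the transgene libraries than the lane 8 controls in the mean of each of the 6 members. For Slc1a2 the means were 1827 CPM in lane 8 controls, 2050 CPM in lane 4 controls and 3508 CPM in transgene libraries. None of the lane differences passed.

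The makeup of the family moved with these genes. Slc1a2 took 57.1% ± 11 of the summed CPM of the 6 genes in controls and 77.3% ± 1.85 in transgene libraries (SD, n = 11 and 6). Slc1a3 took 35.2% ± 9.49 and 19.2% ± 1.70, and Slc1a6 took 5.30% ± 2.11 and 0.548% ± 0.308. The sum of the 6 genes was 3180 ± 359 CPM in controls and 4535 ± 353 CPM in transgene libraries. Control 7 was the exception among controls, with Slc1a2 at 83.6% of its sum, above the highest transgene library (79.8%).

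The ratio of Slc1a2 to Slc1a3 does not depend on library scaling. It lay between 3.54 and 4.62 in the transgene libraries and between 0.937 and 2.65 in 10 controls, but control 7 had the highest ratio of all, 7.06. The mean log2 ratio was 2.01 ± 0.16 in transgene libraries and 0.75 ± 0.79 in controls (SD, n = 6 and 11). The difference of 1.26 passed an exact two-sided permutation test (p = 0.00307; 0.0123 after Benjamini-Hochberg adjustment over 4 ratio tests). Within lane 4 the difference was 0.46 and did not pass (exact two-sided permutation p = 0.429, adjusted 0.857; the smallest p that 6 against 3 allows is 0.0119). Without control 8 the lane 4 difference was -0.10.

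**Figure D3:**
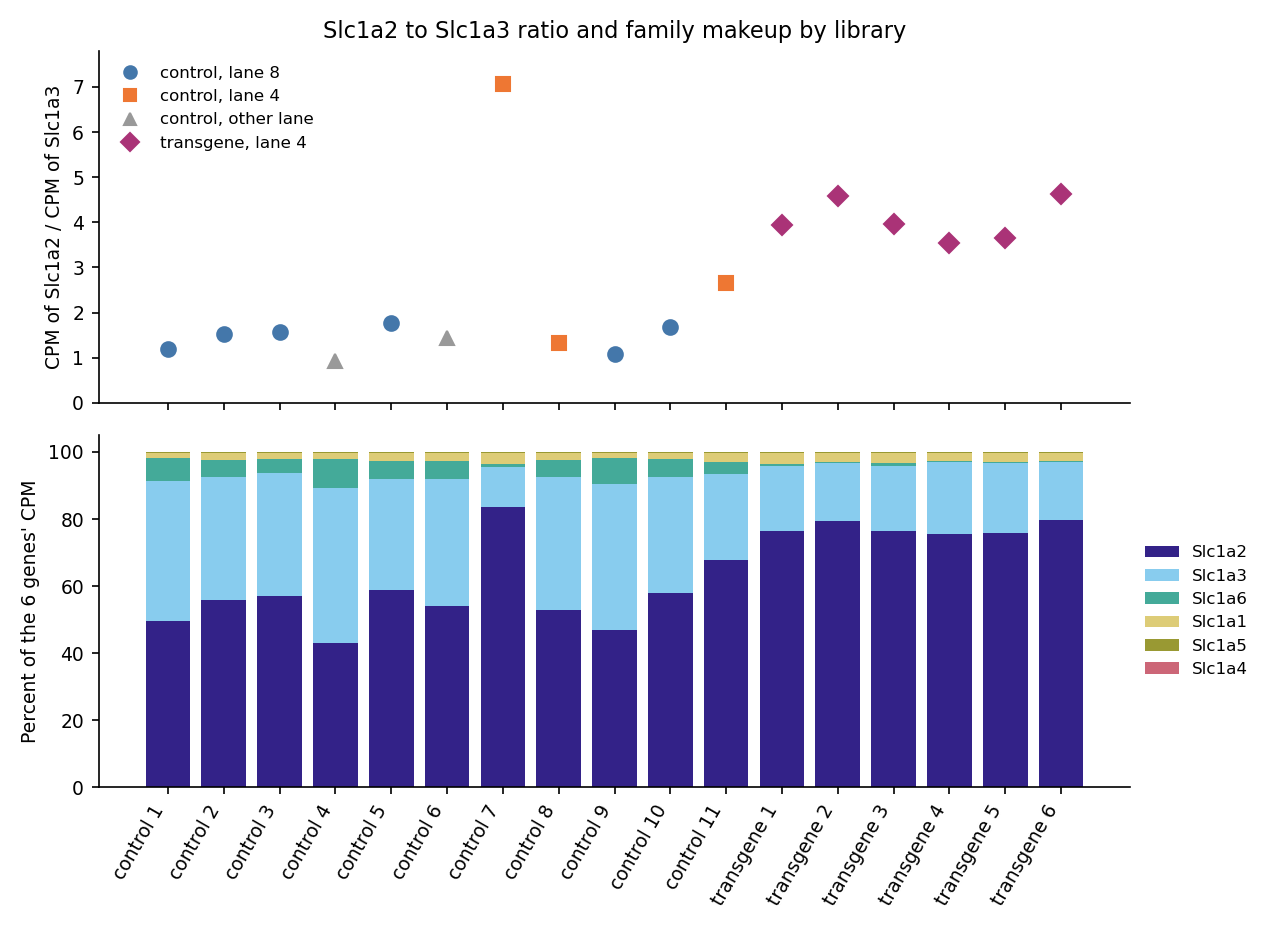
The upper panel plots the ratio of Slc1a2 CPM to Slc1a3 CPM in each library, and the lower panel the percent of the 6 genes' summed CPM taken by each gene. Control 7, at a ratio of 7.06, is above the transgene libraries (3.54 to 4.62), and the other controls are below them.

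The ratio of Slc1a4 to Slc1a5, the pair of neutral amino acid exchangers, differed little between the groups. Its mean log2 value was -1.96 ± 0.19 in transgene libraries and -1.89 ± 0.61 in controls (SD, n = 6 and 11; difference -0.07, exact two-sided permutation p = 0.805, adjusted 0.893). The sign of this difference changed without control 7 and transgene 3.

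Levels of different genes were compared per kilobase of bases found in a single deposited transcript. In controls the order was Slc1a3 (287 ± 85.0 CPM per kilobase), Slc1a2 (187 ± 37.2), Slc1a6 (82.9 ± 31.9), Slc1a1 (26.3 ± 5.12) and Slc1a5 (2.28 ± 0.629; SD, n = 11). The ranges of mean ± 1 SD overlapped for Slc1a3 and Slc1a2 and for no other neighbours. In transgene libraries the order was Slc1a2 (363 ± 35.3), Slc1a3 (222 ± 18.2), Slc1a1 (47.7 ± 3.48), Slc1a6 (12 ± 6.40) and Slc1a5 (2.93 ± 0.291; SD, n = 6), and no such ranges of neighbours overlapped. GLT-1 RNA was thus ahead of GLAST RNA in the transgene libraries, and EAAT3 RNA ahead of EAAT4 RNA. Slc1a4 is left out of the order, since its level was 30.7 ± 9.81 CPM per kilobase in controls on its 54 own bases and 0.422 ± 0.135 over all exon bases.

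Slc1a6 moved with the markers of Purkinje cells and of cerebellar granule cells. Of 7 Purkinje cell markers 6 fell over all libraries (Pcp2, Car8 and Calb1 among them), with Itpr1 at a log2 difference of -0.98 ± 0.40 (edgeR adjusted p = 0.0516), and 1 fell within lane 4. Without control 7 and transgene 3 the counts were 7 of 7 and, within lane 4, 6 of 7, which gives no support, since these are the control with the lowest and the transgene library with the highest sum of these markers. With a block by title number 3 fell within lane 4. Their summed level ranged from 221 CPM (control 7) to 3816 CPM in controls and from 265 to 878 CPM (transgene 3) in transgene libraries, and no marker of the list was at 0 in any library. Cerebellar granule cell markers fell in 6 of 6 cases over all libraries. Their summed CPM was 94.5 to 2509 in the control group and 45.9 to 426 in the transgene group. Gabra6 and Fat2 were at 0 in at least 1 transgene library. Within lane 4 the granule cell markers fell in 4 of 6 cases, and 0 to 5 were called over the leave-one-out fits there. Among all features 24.4% were called lower over all libraries and 12% within lane 4. In bulk tissue, fewer cells of a type and less RNA per cell cannot be told apart.

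Relations of the members to marker scores were computed within each group, with a score being the mean log2 CPM of a list. Of 36 relations (6 genes, 3 lists, 2 groups), 10 passed by Pearson's r and 6 by both r and Spearman's rho after Benjamini-Hochberg adjustment of permutation p-values. For Slc1a6 and the Purkinje score in controls r was 0.99 and rho 0.93 (n = 11, 100000 permutations, adjusted p = 0.00036 and 0.0054). Without controls 7 and 11, the 2 farthest from the median score, r was 0.91 and still passed (adjusted permutation p = 0.038). It was the only 1 of 8 relations called by r in controls to pass without its 2 farthest libraries; in the transgene group this leaves 4 libraries, too few for the test to pass. Among the 6 controls of lane 8, r was 0.95 (exact permutation p = 0.00694, adjusted 0.125 over 18 relations), and lane 4 held too few controls for a value. Slc1a6 and the granule cell score in controls gave r = 0.98 and rho = 0.81 (n = 11, permutation, adjusted p = 0.00108 and 0.0289). Without controls 7 and 11 that r was 0.77 (permutation, adjusted p = 0.219), and in lane 8 it was 0.89 (exact permutation, adjusted p = 0.2).

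In the transgene libraries Slc1a6 gave r = 0.94 and rho = 0.89 with the Purkinje score (n = 6, exact permutation, adjusted p = 0.035 and 0.0911). Without transgene 2 and 3 r was 0.73 over 4 libraries, which cannot be tested. Slc1a6 and the granule cell score gave r = 0.95 and rho = 1 in the same group (exact permutation, adjusted p = 0.00714 and 0.025), and r = 0.90 over the 4 libraries left without transgene 1 and 3. The samples in these relations share depth and scaling, and the score and the gene come from the same library.

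**Figure D4:**
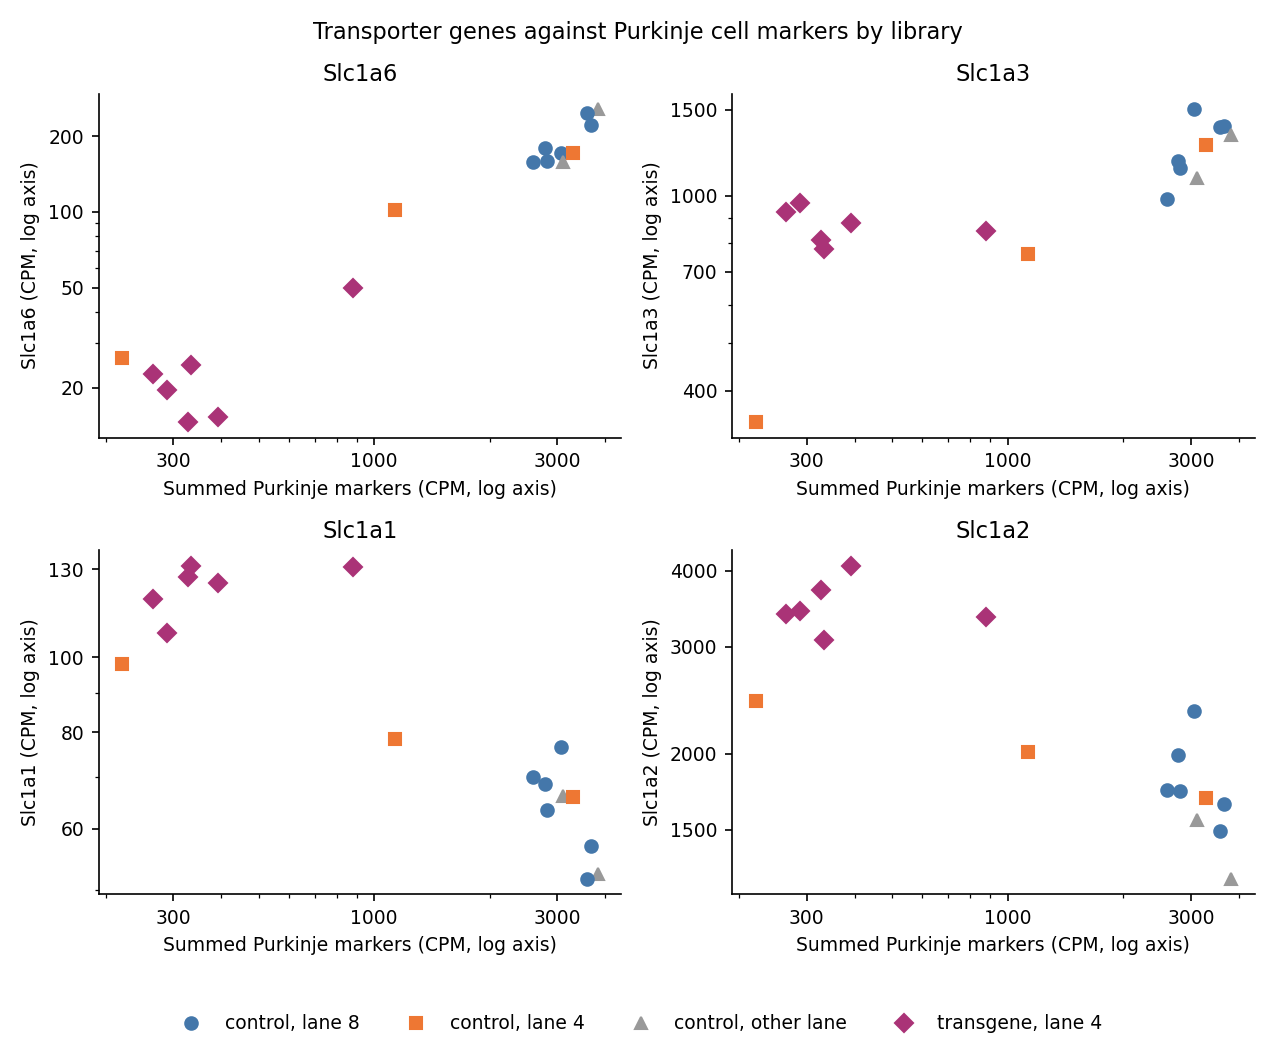
CPM of Slc1a6, Slc1a3, Slc1a1 and Slc1a2 (vertical axes, log scale) against the summed CPM of 7 Purkinje cell markers (horizontal axes, log scale), 1 point per library. Control 7 has the lowest marker sum of all libraries (221 CPM), below every transgene library. Control 11 (1132 CPM) and transgene 3 (878 CPM) lie between the remaining controls and the remaining transgene libraries.

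Slc1a3 followed the cerebellar scores in controls. Its r with the Purkinje score was 0.98 and its rho 0.90 (n = 11, permutation, adjusted p = 0.00108 and 0.00612), and r was 0.82 without controls 7 and 11 (adjusted p = 0.154). In the 6 controls of lane 8 r was 0.80 (exact permutation p = 0.0653, adjusted 0.265). In the transgene libraries r was -0.15 (exact permutation, adjusted p = 0.822). Slc1a3 also ran against the astrocyte score in controls (r = -0.76, permutation, adjusted p = 0.00931; rho = -0.51, adjusted p = 0.227), although Slc1a3 is a glial gene. Without controls 7 and 10 that r was -0.72 (adjusted p = 0.219), and in lane 8 it was -0.31.

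Slc1a1 ran the other way. Its r with the Purkinje score in controls was -0.81 and its rho -0.85 (n = 11, permutation, adjusted p = 0.00144 and 0.0236). Without controls 7 and 11 r was -0.74 (adjusted p = 0.219), and in lane 8 it was -0.73 (exact permutation p = 0.114, adjusted 0.342). For Slc1a2 the same relation gave r = -0.62 and did not pass (permutation, adjusted p = 0.107). Relations of Slc1a4 and Slc1a5 to the 3 scores did not pass in either group.

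Astrocyte and Bergmann glia markers did not follow Slc1a2. Of 10 astrocyte markers 7 fell over all libraries and 5 within lane 4, and none rose; their summed CPM was 1261 to 2326 in the control group and 765 to 978 in the transgene group, where Slc1a2 was higher. Aqp4, the water channel of astrocyte endfeet, fell by 1.33 on the log2 scale (SE 0.13, edgeR adjusted p = 3.21e-07). Bergmann glia markers fell in 4 of 4 cases in both comparisons (summed CPM of 146 to 561 in the control group and of 61.3 to 127 in the transgene group). Without control 7 and transgene 3, 5 of 10 astrocyte and 4 of 4 Bergmann glia markers fell. The part of these region and cell type differences, forebrain markers included, in the values of Slc1a1, Slc1a2, Slc1a3 and Slc1a6 was not tested.

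After removal of the group means, Slc1a3 and Slc1a6 moved together, and Slc1a1 and Slc1a2 moved together and against them. Across the 17 libraries r was 0.85 for Slc1a3 and Slc1a6 and 0.80 for Slc1a1 and Slc1a2. It was -0.78 for Slc1a1 and Slc1a3 and -0.72 for Slc1a1 and Slc1a6. For Slc1a2 it was weaker, at -0.67 with Slc1a6 and -0.50 with Slc1a3. Pairs that include Slc1a4 or Slc1a5 lay between -0.50 and 0.56. These are descriptions across libraries that share scaling, and control 7 was the lowest control in Slc1a3 and Slc1a6 and the highest in Slc1a1 and Slc1a2.

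The genes most like each member by the same measure, among 15570 genes, share a scale and depth with it, so the values are descriptions. For Slc1a6 they were Rgl3 (r = 0.98), Gm14033 (0.97) and Svep1 (0.97), and for Slc1a3 they were Prex2, Pan3 and Gas1 (each 0.97). For Slc1a2 they were Pcdh10 (0.96), Baalc (0.95) and Creg2 (0.95), and for Slc1a1 they were 4930452B06Rik, Agbl4 and Pcdh7 (each 0.92). For Slc1a4 they included Tbca (0.90) and Ranbp1 (0.87), and for Slc1a5 they were Ccl6 (0.89), Capn6 (0.86) and Mpeg1 (0.85).

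Other genes that handle glutamate were read from lists. In the glutamate-glutamine cycle, 2 of 13 genes rose and 5 fell over all libraries, 1 rose and 5 fell within lane 4, and 2 rose and 3 fell over all libraries without control 7 and transgene 3. Over all libraries 7 of 13 is near the 47.4% called among all features, and 25.6% of features were called within lane 4. The median log2 difference of the list was -0.02, beside -0.05 for all features. Slc17a7, which loads glutamate into vesicles of cortical and cerebellar granule neurons, rose by 1.73 ± 0.26 without overlap (edgeR adjusted p = 3.31e-05). Slc17a6, its counterpart in the thalamus, brainstem and cord, fell by 1.30 on the log2 scale (SE 0.42, edgeR adjusted p = 0.0156). That call was lost in 2 of 10 other settings, the fit without control 7 and transgene 3 among them. Within lane 4 Slc17a6 was also called lower, but the call was lost in 7 of 9 leave-one-out fits. Slc17a8 rose by 1.23 ± 0.29 over all libraries and did not pass within lane 4 (0.71 ± 0.39). Slc38a2, a glutamine carrier, fell by 0.71 (SE 0.07), and Gls2, a glutaminase, fell by 0.73 (SE 0.11) within lane 4. Glul, the glutamine synthetase that handles glutamate after astrocyte uptake, was at 0.08 ± 0.09 (edgeR adjusted p = 0.511).

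The ion gradients that drive uptake depend on sodium pumps and on glial potassium and bicarbonate carriers. Of 8 such genes 0 rose and 5 fell, over all libraries and within lane 4, with a list median of -0.50 over all libraries. Among all features 47.4% were called over all libraries (24.4% lower) and 25.6% within lane 4 (12% lower). The 5 were mainly glial: Slc4a4, the sodium bicarbonate cotransporter, fell by 1.13 (SE 0.09), Atp1b2, the glial beta subunit of the pump, fell by 1.11 (SE 0.09), and Kcnj10, the potassium channel Kir4.1, fell by 1.38 (SE 0.23) within lane 4. For Slc4a4 and Atp1b2 no control overlapped a transgene library, so these glial genes and Slc1a2 differed in opposite directions.

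Proteins that bind the transporters were mixed, with 3 of 7 higher and 3 lower over all libraries (list median -0.16). Within lane 4, 1 was higher and 2 lower, and 1 passed there with a block by title number. Among all features 47.4% were called over all libraries and 25.6% within lane 4. Pick1, a PDZ domain protein, rose by 0.61 ± 0.18 over all libraries (edgeR adjusted p = 0.00982) and was at 0.77 ± 0.26 within lane 4 (edgeR adjusted p = 0.0533). Arhgef11, a partner of EAAT4, fell by 0.29 (SE 0.07), and Sept2, which binds GLAST, was at -0.29 ± 0.11 with a call that was lost in 5 of 10 other settings.

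Genes of serine, cystine and glutathione metabolism are linked to the neutral amino acid exchangers. Over all libraries 2 of 13 rose and 5 fell, and within lane 4 1 rose and 3 fell (list median -0.11 over all libraries). Both counts are near the shares called among all features (47.4% and 25.6%). Srr, which makes D-serine, rose by 0.71 ± 0.11, and Slc7a11, the cystine-glutamate exchanger, rose by 0.51 ± 0.15 over all libraries, a call that was lost in 2 of 10 other settings. Within lane 4 Slc7a11 did not pass (0.51 ± 0.19, edgeR adjusted p = 0.0665). Slc7a10, the Asc-1 exchanger of small neutral amino acids, fell by 0.85 (SE 0.16), and Gss, the glutathione synthetase, fell by 0.76 (SE 0.15). Of the other plasma membrane transmitter transporters, 3 of 5 tested genes fell over all libraries and 2 within lane 4. Slc6a5, the neuronal glycine transporter, was at 13.5 ± 9.14 CPM in controls and 0.10 ± 0.14 CPM in transgene libraries, and Slc6a9, its glial counterpart, fell by 1.58 (SE 0.20).

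**Figure D5:**
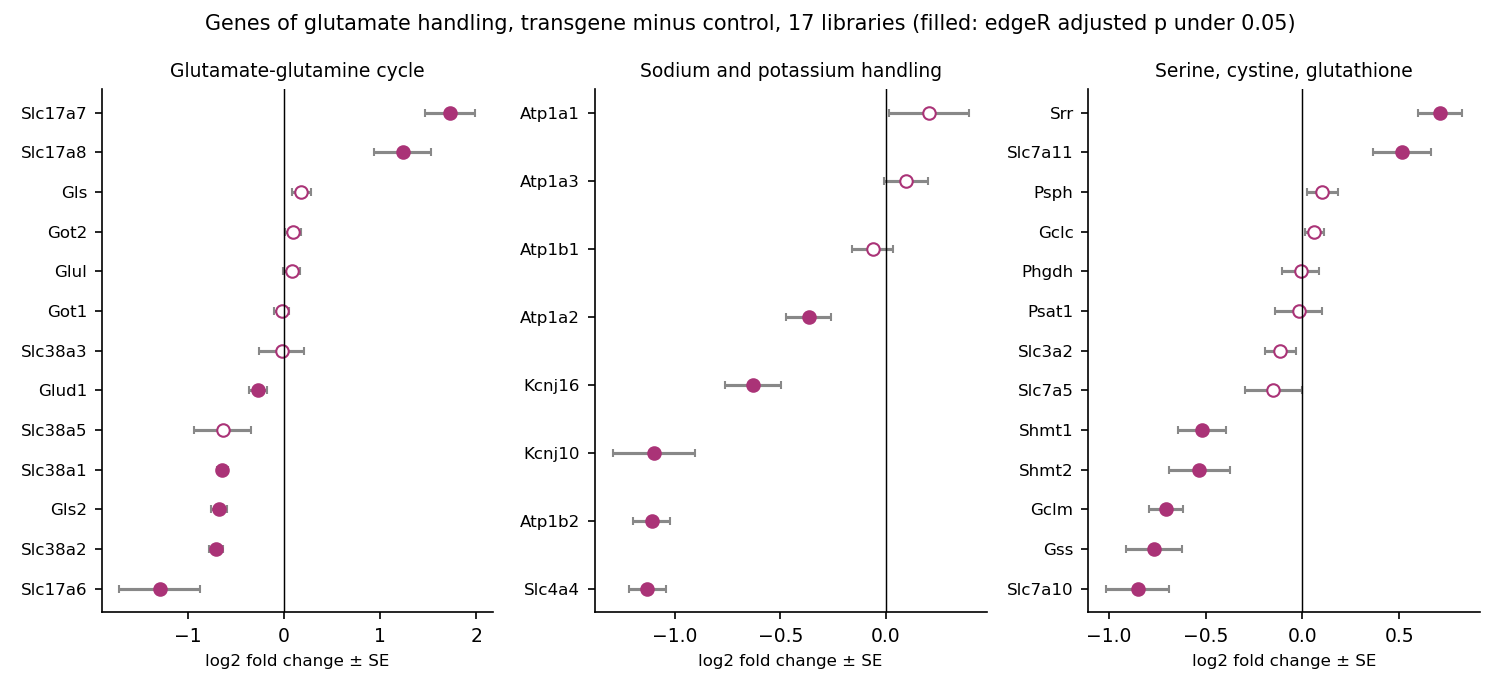
Log2 differences with SE (horizontal axes), transgene minus control over 17 libraries, for 3 lists of genes around glutamate handling. Filled points passed the edgeR adjusted threshold of 0.05; all 5 filled points of the sodium and potassium panel lie below 0, while the other panels hold filled points on both sides.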

How the data were processed

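RNA of 17 mouse brain libraries was sequenced by the authors, who deposited raw counts per transcript (68517 rows per library, of which 5 closing rows that name no feature were left out). Reads were placed on mm10, per the submitters' processing notes; not given in the sources used here are the aligner, the counting program and its strand setting, and the annotation. Reads left unassigned because they matched more than 1 feature were 41.1% ± 0.81 of reads in controls and 42.1% ± 0.84 in transgene libraries (SD, n = 11 and 6), and reads outside any feature 8.98% ± 1.41 and 7.44% ± 1.43, so genes with overlapping transcripts lost reads.

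Rows were matched to GENCODE M21, on the same assembly, for 64380 of 64505 Ensembl rows and summed per gene. The test was the quasi-likelihood F test of edgeR 4.0.16 in R 4.3.3, after TMM scaling and filterByExpr, with Benjamini-Hochberg adjustment over all tested features and a threshold of 0.05. SEs were derived from the F statistic. Levels are TMM-scaled CPM, log2 values carry a prior count of 2, and ratios a pseudocount of 0.1 CPM. Alternatives were DESeq2 1.42.0, limma 3.58.1 (voom), other scalings and filters, the strongest row per gene, a term for lane and flow cell, a replicate block, and leaving out libraries. The test scripts were tested on simulated counts. Within lane 4, the 3 controls and the transgene libraries with the same first number in their titles deviated together from their group means (r = 0.11, 0.46 and 0.19 across genes), so the numbers were taken to pair them there; the labels do not say what the numbers mean, and 1 of the 3 controls correlated best with its own number. No pair of libraries in a group agreed within sampling noise (lowest chi-square per gene 8.76).

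The members and gene lists were chosen with earlier results of these data known. Named genes are all members, up to 2 called rises and 2 called falls of largest size per pathway list (mean log2 CPM not below 0), marker lists where they stand beside a member, and the 3 genes most like each member; some genes that these rules name are not reported here. Motifs were searched in RefSeq promoter windows.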

Additional observations from a re-analysis of the deposited data

Results flagged for a closer look

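Slc1a6 in transgene 3 stood apart from the other transgene libraries, at 49.6 CPM with the next highest at 24.6 CPM. The gap was 0.714 of the range of the 6 libraries, above Dixon's 95% limit for 6 values. It was the only value of 16 sets of members and groups checked to do so, and chance marks about 1 in 20. Transgene 3 also had the highest summed level of Purkinje cell markers (878 CPM) and granule cell markers (426 CPM) of the transgene libraries; their part in the value was not tested.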

How the results depend on the processing

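Slc1a1, Slc1a2 and Slc1a6 kept direction and call over all libraries in the 10 other settings run and in each leave-one-out fit, with log2 differences of 0.61 to 0.93, 0.77 to 1.04 and -3.22 to -2.03 over the other settings. The number of members called was 5 instead of 3 without control 7 and transgene 3, and 3 to 5 over the leave-one-out fits. Without control 7 and transgene 3 the added calls were Slc1a3 and Slc1a5. Control 7 was the lowest control for Slc1a3 and transgene 3 the lowest transgene library for Slc1a5, so these calls give no support. With a term for lane and flow cell, 5887 features were called over all libraries and Slc1a3 turned to 0.14. Slc1a5 passed in 5 of the 10 other settings, among them DESeq2 (adjusted p = 0.0351) and limma-voom (adjusted p = 0.0307). Within lane 4, Slc1a5 turned to -0.0032 with library size only; Slc1a3 turned to -0.24 without control 7 and transgene 3; and Slc1a4 and Slc1a5 turned to -0.10 and -0.10 without the libraries with an unlike title ending (controls 4, 6 and 8, transgene 5), where Slc1a6 was -1.36 (adjusted p = 0.107). Leave-one-out fits ranged within lane 4 from -0.23 to 0.64 for Slc1a3, -0.077 to 0.34 for Slc1a4 and -0.11 to 0.35 for Slc1a5, and between lanes from -0.24 to 0.15 for Slc1a4, with 0 to 88 features called between lanes; DESeq2 called 1. The Slc1a2 to Slc1a3 log2 ratio difference ranged over the leave-one-out fits from 1.18 to 1.47, and within lane 4 from -0.10 to 1.1. That of Slc1a4 to Slc1a5 turned to 0.0063 and, within lane 4, 0.27 without control 7 and transgene 3, and ranged over the leave-one-out fits from -0.20 to 0.00087 and -0.36 to 0.24. Of 8 relations to marker scores called in controls 1 passed without the 2 farthest libraries, and 0 passed in lane 8 alone, a setting chosen after seeing the data (2 had an unadjusted exact permutation p under 0.05). The cause was not tested, beyond the smaller number of libraries in the last cases.

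A replicate block by the first number of the title gave 7502 called features over all libraries (9077 without it) and 3041 within lane 4 (4936 without it), and it turned Slc1a4 there to -0.019. The block changed none of the 3 member calls in either comparison. Over all libraries the numbers did not pair the samples by the rule that every pair exceeds 0.1 (6 of 9 same-number pairs did; range -0.35 to 0.31). The 610 counts of Slc1a4 limit what can be said of it.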

Other observations

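Markers of other cell types were read beside the members over all libraries. Striatal projection neuron markers rose in 6 of 6 cases, and genes of Purkinje cell stripes fell in 4 of 4. Of 7 oligodendrocyte markers 1 rose and 6 fell, and of 4 tested endothelial markers 3 fell. Both oligodendrocyte precursor markers rose, and 2 of 3 tested microglia markers rose, with 1 of 4 tested higher within lane 4. Over the 10 other settings 0 to 2 precursor markers and 1 to 4 endothelial markers were called. Of 2 tested choroid plexus markers 0 passed, and of 4 pan-neuronal markers 1 rose. Among all features 47.4% were called over all libraries (23% higher and 24.4% lower) and 25.6% within lane 4 (13.6% higher and 12% lower). Within lane 4, 6 oligodendrocyte markers and 3 endothelial markers fell, and no oligodendrocyte precursor marker passed. These lane 4 counts were 3 and 0 with a block by title number, and 1 and 1 without control 7 and transgene 3.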
